A study of Mus musculus with 24 samples.

Results

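The 12 control arrays of a study of the anterior heart field (AHF) were set against each other: 4 of Tbx1_Ctrl, 4 of Bcat_Ctrl and 4 of Rescue_Ctrl, of 24 arrays in the series. They were taken by their labels alone, and the 12 mutant arrays entered only an alternative fit. Each control group had been made for its own mutant, a *Tbx1* loss, a β-catenin loss and a rescue in which *Tbx1* loss was combined with loss of 1 β-catenin allele. The comparison asks how alike the baselines of the 3 experiments were. All embryos were at E9.5 with 19 to 21 somite pairs, and the AHF was microdissected as the tissue of pharyngeal arches 2 to 6.

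According to the methods the controls carried no Cre and were *Tbx1* f/+ in Tbx1_Ctrl, β-catenin f/+ in Bcat_Ctrl and *Tbx1* f/+;β-catenin f/+ in Rescue_Ctrl. The labels give the groups as controls and their protocol text also names wild type and *Mef2c-AHF-Cre*/+;*Tbx1* f/+ littermates, so the genotype of an array is not settled here. The *Tbx1* f/f line was congenic in Swiss Webster, the β-catenin f/f line was on a mixed C57Bl/6 and Swiss Webster background, and the doubly floxed line was inbred from such a mixture. Each array held RNA pooled from several embryos, and 100 ng was amplified for an Affymetrix mouse Gene ST array. Group, cross, strain background and experiment therefore cannot be told apart in any difference given here. According to the methods the arrays were run in several batches and a batch correction (ComBat) was applied before testing. No source used here states which arrays shared a batch, or whether the deposited values hold that correction, and whether array numbers follow batches was not tested. The labels also do not say whether pools of a group shared a litter, so p-values measure the spread between these pools.

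The AHF is the part of the second heart field that lies in the pharyngeal mesoderm. Its cells divide in the arches and are added to the arterial pole of the heart tube, where they form the right ventricle and the outflow tract, and some form muscles of the head. *Tbx1* holds back premature differentiation of these progenitors, whereas sarcomere proteins mark cells that have become heart muscle. The arches also hold pharyngeal endoderm, surface ectoderm, neural crest mesenchyme and endothelium, and the neural tube, somites, heart and liver bud lie close to the line of dissection.

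The values are log2 RMA intensities, averaged over the probe sets of a gene with a single symbol, for 19938 genes. Array medians lay between 8.0 and 8.13. Spearman correlation between pairs of control arrays over all genes was 0.9862 to 0.9987. For 10 of the 12 arrays the most similar array was one of the same group. The exceptions were Bcat_Ctrl array 4 and Rescue_Ctrl array 1, each nearest to the other (rho = 0.9985). Bcat_Ctrl array 2 had the lowest mean correlation with the other 11 arrays, 0.9909, and Rescue_Ctrl array 3 came next with 0.9941. In Tbx1_Ctrl, arrays 1 and 2 were nearest to each other (rho = 0.9977), as were arrays 3 and 4 (rho = 0.9987). In average-linkage clustering of these correlations the arrays did not join by group. Tbx1_Ctrl arrays 3 and 4 joined Bcat_Ctrl array 4 and Rescue_Ctrl arrays 1, 2 and 4 before Tbx1_Ctrl arrays 1 and 2. Bcat_Ctrl array 4 had a mean rho of 0.9954 with its own group and 0.9971 with the other groups. Differences of the heart muscle lists, and of most heart genes named, are given with and without Bcat_Ctrl array 2.

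**Figure D1:**
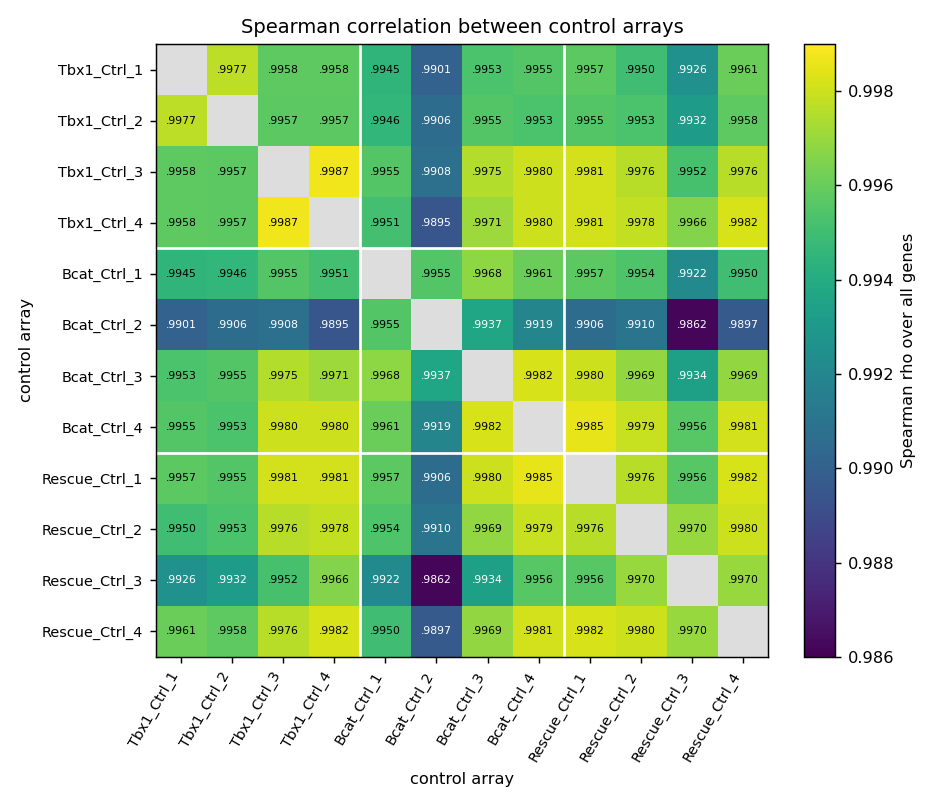
Spearman correlation between the 12 control arrays over 19938 genes; rows and columns are arrays, colour and number give rho, and white lines separate Tbx1_Ctrl, Bcat_Ctrl and Rescue_Ctrl. Bcat_Ctrl array 2 has the lowest row, down to 0.9862 with Rescue_Ctrl array 3, and Bcat_Ctrl array 4 is as close to Rescue_Ctrl array 1 (0.9985) as to any array.

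The labelled tissue was checked against its markers. An array gives no true zero, so the 95th percentile of 1194 olfactory and vomeronasal receptor genes, 7.06 to 7.5 in the 12 arrays, served as a level of genes that this tissue does not use. Most genes passed it, with 14603 of 19938 above it in at least 4 arrays. A count above it therefore does not by itself show a tissue. All 11 measured genes of the AHF list lay above it in all 12 arrays, as did 16 of 16 cardiac transcription factors. The same held for 14 of 14 pharyngeal endoderm genes, 11 of 11 surface ectoderm genes, 15 of 15 arch mesenchyme genes, 7 of 7 neural crest genes and 17 of 17 endothelial genes. Genes of neighbouring tissue were also above it, with 34 of 39 cardiac sarcomere genes, 17 of 19 neural tube genes and 13 of 14 somite genes. Of other lists, fewer members were above it in every array, with 5 of 9 forebrain and midbrain genes, 6 of 17 *Hox* genes of groups 5 to 10 and 6 of 16 liver and gut genes. Blood genes were measured too, with 11 of 12 erythroid genes and 6 of 14 macrophage and platelet genes above it in all arrays, and of the second list *C1qc*, *Ptprc* and *Mrc1* in none.

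The floxed genes were at similar levels in the 3 groups. *Tbx1* had 11.91, 11.77, 11.98 and 11.99 in Tbx1_Ctrl, 11.75, 11.51, 11.82 and 11.87 in Bcat_Ctrl and 11.83, 11.95, 11.75 and 11.58 in Rescue_Ctrl. *Ctnnb1*, which encodes β-catenin, had 13.39, 13.29, 13.16 and 13.16 in Tbx1_Ctrl, 13.19, 13.23, 13.19 and 13.21 in Bcat_Ctrl and 13.19, 13.16, 13.16 and 13.2 in Rescue_Ctrl. The groups overlapped for both genes and for *Mef2c*, whose enhancer drives the Cre of the study, in each of the 9 pairwise comparisons. Their differences were between -0.06 and 0.18 on the log2 scale, with two-sided exact permutation p = 0.0857 to 0.6571 and Benjamini-Hochberg adjusted p = 0.6245 to 0.6571 over the 9, where 4 arrays against 4 allow no p below 0.0286. None of the 11 AHF genes was called in any pair of groups, and their median difference was 0.07 for Tbx1_Ctrl minus Bcat_Ctrl, 0.07 for Tbx1_Ctrl minus Rescue_Ctrl and -0.04 for Bcat_Ctrl minus Rescue_Ctrl. The AHF members with the widest range of group means were *Fgf8*, an FGF ligand of the arches, at 0.45, the forkhead gene *Foxc2* at 0.38, *Prdm1* at 0.37 and the Wnt ligand *Wnt11* at 0.25.

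Gene by gene, the largest number of differences was between Tbx1_Ctrl and Bcat_Ctrl. A gene was called at an adjusted p under 0.05 in limma, with Benjamini-Hochberg adjustment over 19938 genes in 1 fit to the 12 arrays. Of all genes 60 were called there (0.301%), 42 higher (0.211%) and 18 lower (0.0903%) in Tbx1_Ctrl than in Bcat_Ctrl. Only *Slc38a3* was called between Tbx1_Ctrl and Rescue_Ctrl, and only *Ctse* between Bcat_Ctrl and Rescue_Ctrl (0.00502% each). Against the other 8 controls, 42 genes were called in Tbx1_Ctrl (0.211%), 34 of them higher (0.171%) and 8 lower (0.0401%). In Bcat_Ctrl 4 were called (0.0201%), 2 in each direction (0.01% each), and in Rescue_Ctrl 0 were called by limma. There 2503 genes had an unadjusted p under 0.05. Of the alternatives for Rescue_Ctrl, the fit to all 24 arrays called 4, that within arrays 1 and 2 called 529, and other scalings called none. These contrasts share arrays, so their counts are not independent.

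Genes were also counted at the study's looser threshold, an unadjusted p under 0.05 with a fold change over 1.5. Tbx1_Ctrl against Bcat_Ctrl gave 35 genes higher (0.176%) and 109 lower (0.547%), and Tbx1_Ctrl against Rescue_Ctrl gave 35 higher (0.176%) and 5 lower (0.0251%). Bcat_Ctrl against Rescue_Ctrl gave 126 higher (0.632%) and 9 lower (0.0451%). Against the other 8 controls it gave 25 higher (0.125%) and 8 lower (0.0401%) in Tbx1_Ctrl, 113 higher (0.567%) and 12 lower (0.0602%) in Bcat_Ctrl and 3 higher (0.015%) and 41 lower (0.206%) in Rescue_Ctrl. The median difference over all genes was 0.042, 0.008 and -0.03 in these pairs, in the same order. Genes whose arrays did not overlap between groups numbered 1055 higher (5.29%) and 397 lower (1.99%) in Tbx1_Ctrl against Bcat_Ctrl, 635 higher (3.18%) and 476 lower (2.39%) in Tbx1_Ctrl against Rescue_Ctrl, and 548 higher (2.75%) and 1092 lower (5.48%) in Bcat_Ctrl against Rescue_Ctrl. Against the other 8 controls they numbered 174 higher (0.873%) and 71 lower (0.356%) in Tbx1_Ctrl, 137 higher (0.687%) and 259 lower (1.3%) in Bcat_Ctrl and 112 higher (0.562%) and 86 lower (0.431%) in Rescue_Ctrl. The count of 60 depended on single arrays: it was 4 without Tbx1_Ctrl array 1, 5 without Bcat_Ctrl array 1, 17 without Tbx1_Ctrl array 2, 17 without Bcat_Ctrl array 3 and 21 without Bcat_Ctrl array 2. Same-numbered arrays of Tbx1_Ctrl and Bcat_Ctrl deviated together, and so did differently numbered ones within arrays 1 and 2 or within arrays 3 and 4. With a block for array number in these 2 groups, chosen after seeing the data, 19 genes were called, 18 of them among the 60. Below, the block means this one unless another is named, and it is used for Tbx1_Ctrl minus Bcat_Ctrl only. In that fit the levels of both groups are the fitted levels of array number 1. Its contrasts with Rescue_Ctrl are therefore not differences of group means. They are printed only among the counts by processing, and no result rests on them. A block for array number over all 12 arrays called 17, 14 of them among the 60, and gave another outcome for some genes.

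A group of neural tube genes was higher in Tbx1_Ctrl. *Nkx2-9*, *Olig2*, *Pax6*, *Dbx1*, *Rfx4* and *Pou3f2*, transcription factor genes of neural progenitors, were each called higher in Tbx1_Ctrl than in Bcat_Ctrl. The first 5 differed by between 0.59 and 1.54 on the log2 scale (1.51-fold to 2.91-fold), and *Pou3f2* by a bound only. In bulk tissue, more cells of a type and more RNA per cell cannot be told apart. The 250 bases before each RefSeq start of these 6 genes are shown. The 6 were picked as neural tube genes, after the calls were seen, from the genes called higher in the comparison with the most calls. The windows are on GRCm38.p6, 5′ to 3′, with the letters ACAAT or their reverse complement ATTGT in capitals, the core letters of sites that SOX proteins bind. On the plus strand lie *Olig2* at chr16:91225300-91225549, *Pax6* at chr2:105668646-105668895 and chr2:105682213-105682462, and *Rfx4* at chr10:84755798-84756047 and chr10:84837898-84838147. On the minus strand lie *Nkx2-9* at chr12:56613285-56613534, *Dbx1* at chr7:49636836-49637085 and *Pou3f2* at chr4:22488367-22488616.
Nkx2-9: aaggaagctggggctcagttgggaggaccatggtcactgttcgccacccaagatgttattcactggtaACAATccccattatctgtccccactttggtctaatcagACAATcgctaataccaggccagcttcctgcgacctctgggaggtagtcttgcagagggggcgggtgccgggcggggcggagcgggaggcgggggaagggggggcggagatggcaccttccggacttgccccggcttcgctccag
Olig2: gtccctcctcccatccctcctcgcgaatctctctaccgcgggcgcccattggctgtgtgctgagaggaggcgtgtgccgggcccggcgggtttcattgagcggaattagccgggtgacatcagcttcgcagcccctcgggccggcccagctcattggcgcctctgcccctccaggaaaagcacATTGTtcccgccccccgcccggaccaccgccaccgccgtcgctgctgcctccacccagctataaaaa
Pax6 window 1: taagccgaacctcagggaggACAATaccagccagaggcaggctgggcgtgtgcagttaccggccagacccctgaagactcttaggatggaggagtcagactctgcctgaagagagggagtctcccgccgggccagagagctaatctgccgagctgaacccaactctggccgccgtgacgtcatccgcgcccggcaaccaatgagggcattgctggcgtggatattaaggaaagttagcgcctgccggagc
Pax6 window 2: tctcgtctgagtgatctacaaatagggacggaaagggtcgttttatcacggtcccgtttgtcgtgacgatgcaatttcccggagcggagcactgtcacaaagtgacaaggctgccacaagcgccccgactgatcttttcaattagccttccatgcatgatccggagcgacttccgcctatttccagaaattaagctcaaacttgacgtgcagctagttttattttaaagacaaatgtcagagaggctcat
Dbx1: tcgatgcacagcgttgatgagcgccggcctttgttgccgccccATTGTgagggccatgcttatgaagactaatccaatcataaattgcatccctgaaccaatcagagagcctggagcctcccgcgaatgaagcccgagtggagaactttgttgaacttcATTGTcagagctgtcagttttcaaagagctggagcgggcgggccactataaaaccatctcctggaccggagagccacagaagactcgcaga
Rfx4 window 1: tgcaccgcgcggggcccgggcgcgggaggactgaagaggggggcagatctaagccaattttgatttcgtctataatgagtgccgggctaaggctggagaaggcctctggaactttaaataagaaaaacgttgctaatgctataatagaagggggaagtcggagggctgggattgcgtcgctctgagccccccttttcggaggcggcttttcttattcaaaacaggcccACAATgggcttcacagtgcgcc
Rfx4 window 2: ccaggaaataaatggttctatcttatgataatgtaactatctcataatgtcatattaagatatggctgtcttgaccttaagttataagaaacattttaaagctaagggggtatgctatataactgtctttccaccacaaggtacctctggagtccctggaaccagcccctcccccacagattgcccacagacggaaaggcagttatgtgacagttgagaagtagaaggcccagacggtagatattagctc
Pou3f2: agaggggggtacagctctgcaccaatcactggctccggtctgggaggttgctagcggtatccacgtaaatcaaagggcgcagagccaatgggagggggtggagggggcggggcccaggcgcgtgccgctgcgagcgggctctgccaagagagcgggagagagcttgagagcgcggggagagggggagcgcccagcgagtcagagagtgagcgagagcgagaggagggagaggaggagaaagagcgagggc

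The *Nkx2-9* and *Dbx1* windows held 2 matches each, and the *Olig2* window and the first windows of *Pax6* and *Rfx4* held 1 each. The second windows of *Pax6* and *Rfx4* and the *Pou3f2* window held 0. On either strand the letters were found in 27.7% of 32851 windows of 250 bases before a start. Of the 42 genes called higher, 28 had a window, and 16 of their 36 windows (44.4%) held a match. The motif was picked after the values were seen, and a match is a description of the letters and not of a bound site.

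*Nkx2-9*, a homeobox gene of the ventral neural tube, had 10.1, 9.71, 10.19 and 9.76 in Tbx1_Ctrl, 8.38, 8.42, 7.94 and 8.87 in Bcat_Ctrl and 8.12, 8.49, 9.03 and 9.21 in Rescue_Ctrl. The 4 Tbx1_Ctrl arrays were above all 8 others. The difference was 1.54 ± 0.23 (limma SE) against Bcat_Ctrl (adjusted p = 0.0196), 1.23 against Rescue_Ctrl (adjusted p = 0.0934) and 1.39 against both together (adjusted p = 0.0126). With the block for array number the first of these had an adjusted p of 0.055, and with the block over all 12 arrays 0.0367.

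*Pax6*, which sets progenitor identity along the neural tube, had 9.0, 8.87, 9.14 and 8.49 in Tbx1_Ctrl, 7.73, 7.6, 7.94 and 7.92 in Bcat_Ctrl and 7.9, 8.2, 8.29 and 8.18 in Rescue_Ctrl. Tbx1_Ctrl again did not overlap either group, and Bcat_Ctrl and Rescue_Ctrl overlapped. It was 1.08 ± 0.13 higher than in Bcat_Ctrl (adjusted p = 0.00461, and 0.0105 with the block) and 0.73 higher than in Rescue_Ctrl, which was not called (adjusted p = 0.0854). *Pax6* was called against Bcat_Ctrl whichever 1 of the 12 arrays was left out, as were *Ctse* and *Slc38a3* and no other of the 60.

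*Olig2*, a bHLH gene of motor neuron progenitors, had 8.91, 8.4, 8.41 and 7.79 in Tbx1_Ctrl, 7.11, 7.08, 7.04 and 7.15 in Bcat_Ctrl and 7.09, 7.34, 7.56 and 7.93 in Rescue_Ctrl. Bcat_Ctrl was low in all 4 arrays, whereas Rescue_Ctrl array 4 reached above Tbx1_Ctrl array 4. The difference was 1.28 ± 0.2 against Bcat_Ctrl (adjusted p = 0.02, and 0.0402 with the block) and 0.89 against Rescue_Ctrl (adjusted p = 0.232). With the block over all 12 arrays the difference of *Olig2* from Bcat_Ctrl was not called (adjusted p = 0.0665). *Dbx1*, a homeobox gene of interneuron progenitors, had 8.25, 8.56, 8.44 and 8.51 in Tbx1_Ctrl, 7.82, 7.88, 7.85 and 7.83 in Bcat_Ctrl and 7.77, 7.78, 8.14 and 7.92 in Rescue_Ctrl. All 4 Tbx1_Ctrl arrays lay above the other 8, by 0.59 against Bcat_Ctrl (adjusted p = 0.0196) and 0.54 against Rescue_Ctrl (adjusted p = 0.0505).

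*Rfx4*, a winged-helix factor of the developing brain and spinal cord, averaged 8.67 ± 0.41 in Tbx1_Ctrl, 7.45 ± 0.17 in Bcat_Ctrl and 7.66 ± 0.37 in Rescue_Ctrl (SD, n = 4). *Pou3f2*, a POU gene of neural progenitors, averaged 7.69 ± 0.38, 6.48 ± 0.16 and 6.63 ± 0.32 in the same groups. Both were called against Bcat_Ctrl (adjusted p = 0.0238 and 0.0196), and neither with the block (0.0586 and 0.0519). *Rfx4* differed by 1.21. *Pou3f2* was above the olfactory level in 3 arrays, all of Tbx1_Ctrl, so that with each dim array set to its olfactory level it was at least 1.49-fold higher than in Bcat_Ctrl. *Olig2* was above that level in 9 arrays. *Zic2*, of the dorsal neural tube, was called against the other 8 controls, by 0.87 (adjusted p = 0.0235, and 0.0699 with the block over all 12 arrays). It had 9.17, 9.18, 9.07 and 8.88 in Tbx1_Ctrl against 7.54 to 8.5 in the other groups. Other genes called higher in Tbx1_Ctrl than in Bcat_Ctrl, picked after their values were seen for their known place in the nervous system, were the Notch target *Hes5* (0.58), the guidance ligand *Slit1* (0.62), *Rtn1* (0.63) and the adhesion gene *Nrcam* (0.47). With the block *Slit1* was called and the other 3 were not (adjusted p = 0.0763 for *Hes5*, 0.059 for *Rtn1* and 0.0877 for *Nrcam*). With the block over all 12 arrays none of them was called (adjusted p = 0.063 for *Slit1*).

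**Figure D2:**
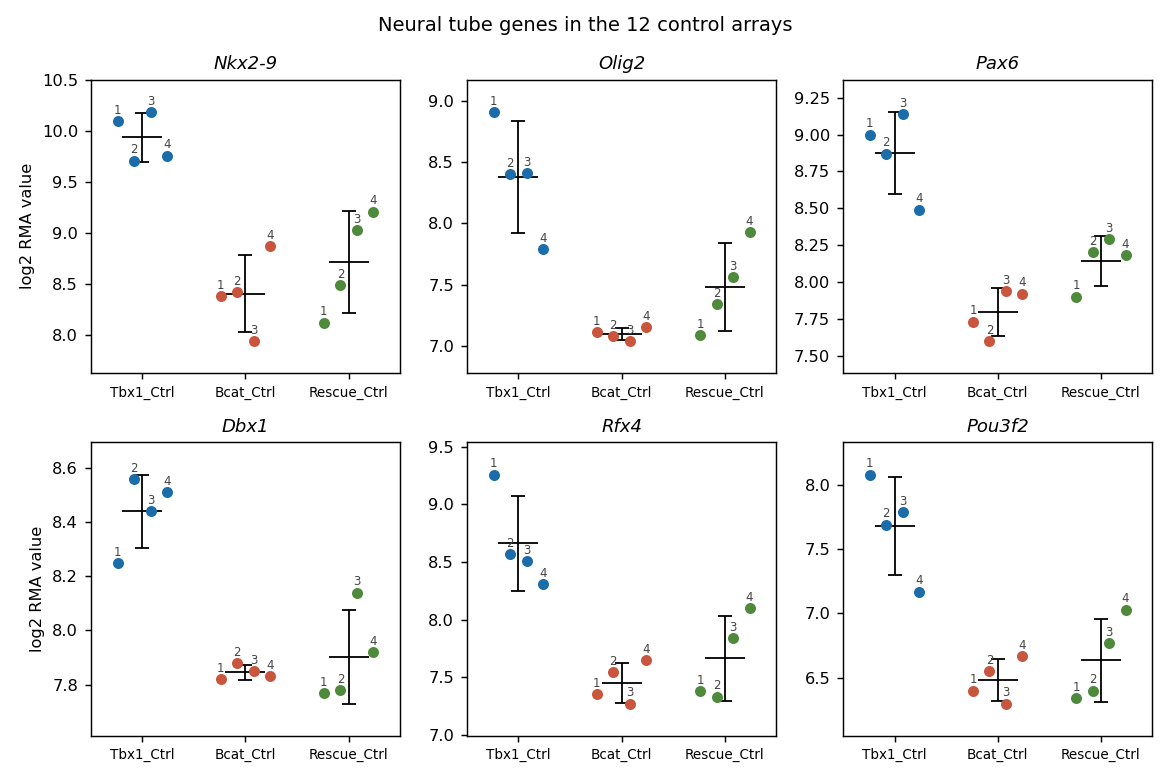
Log2 RMA value of 6 neural tube genes in each control array; points are arrays with their number, the long line is the group mean and the whiskers are 1 SD (n = 4). In each panel the 4 Tbx1_Ctrl arrays lie above the 4 Bcat_Ctrl arrays, and Rescue_Ctrl arrays 3 and 4 lie between or, in *Olig2*, reach into Tbx1_Ctrl.

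Of the neural tube list, *Nkx2-9*, *Rfx4*, *Pou3f2* and *Zic2* are not members. Of its 19 measured members 3 were called higher in Tbx1_Ctrl than in Bcat_Ctrl (*Olig2*, *Pax6* and *Dbx1*) and 16 were not called. A difference above 0 was found for 17 of 19, against 67.3% of all genes, and 12 had an unadjusted p under 0.05, against 10.2%, and 9 did not overlap, against 5.29%. The median was 0.28, beside 0.04 over all genes, and stayed at 0.22 to 0.33 when 1 array was left out. Against Rescue_Ctrl, Tbx1_Ctrl had a median of 0.27 with no member called, 18 of 19 differences were above 0, against 53.1% of all genes (46.9% below), and 8 had an unadjusted p under 0.05, against 6.65%. Against the other 8 controls all 19 differences were above 0, against 61.8% of all genes, and 11 had an unadjusted p under 0.05, against 8.23% (2.63% were lower). Bcat_Ctrl minus Rescue_Ctrl had a median of -0.07, with no member called.

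Within Tbx1_Ctrl and Rescue_Ctrl the list varied from array to array. The mean of the list, relative to the 12 arrays, was 0.42, 0.15, 0.19 and 0.12 in Tbx1_Ctrl, -0.14, -0.29, -0.09 and -0.1 in Bcat_Ctrl and -0.11, -0.27, 0.0 and 0.11 in Rescue_Ctrl. Rescue_Ctrl array 4 thus came near Tbx1_Ctrl array 4. Tbx1_Ctrl minus Rescue_Ctrl had a list median of 0.45 within arrays 1 and 2 and of 0.05 within arrays 3 and 4, and Tbx1_Ctrl minus Bcat_Ctrl had 0.38 and 0.22. The cranial ganglia list, of neurons outside the neural tube, had a median of 0.0 in Tbx1_Ctrl minus Bcat_Ctrl with no member called, and its neurofilament gene *Nefm* averaged 8.73 ± 0.29 in Tbx1_Ctrl and 9.1 ± 0.11 in Bcat_Ctrl (adjusted p = 0.359).

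The smallest adjusted p between Tbx1_Ctrl and Bcat_Ctrl belonged to a gene of no tissue list. *Ctse*, which encodes the aspartic protease cathepsin E, had 8.61, 9.17, 8.89 and 9.26 in Tbx1_Ctrl, 7.66, 7.27, 7.55 and 7.19 in Bcat_Ctrl and 8.58, 8.31, 8.64 and 8.59 in Rescue_Ctrl. Bcat_Ctrl was below all other arrays. The difference of Tbx1_Ctrl from Bcat_Ctrl was 1.56 ± 0.14 (2.96-fold, adjusted p = 0.000361), and that of Tbx1_Ctrl from Rescue_Ctrl was 0.45 (adjusted p = 0.449). That of Bcat_Ctrl from Rescue_Ctrl was -1.11 ± 0.14 (adjusted p = 0.0233, and 0.0569 with the block over all 12 arrays).

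*Slc38a3*, a glutamine transporter, set Tbx1_Ctrl apart from both other groups. It had 9.21, 9.19, 9.28 and 9.06 in Tbx1_Ctrl, 8.52, 8.47, 8.65 and 8.44 in Bcat_Ctrl and 8.61, 8.57, 8.79 and 8.6 in Rescue_Ctrl, with no overlap of Tbx1_Ctrl and the rest. It was higher by 0.67 ± 0.07 than in Bcat_Ctrl (adjusted p = 0.00103) and by 0.54 ± 0.07 than in Rescue_Ctrl (adjusted p = 0.0249), whereas Bcat_Ctrl minus Rescue_Ctrl was -0.12 (adjusted p = 0.346). With the block over all 12 arrays Tbx1_Ctrl minus Rescue_Ctrl was called for *Slc38a3* (adjusted p = 0.00859). *Amph*, which encodes the synaptic protein amphiphysin, averaged 9.9 ± 0.44 in Tbx1_Ctrl, 8.38 ± 0.34 in Bcat_Ctrl and 8.81 ± 0.57 in Rescue_Ctrl, a difference of 1.52 from Bcat_Ctrl (adjusted p = 0.0335, and 0.0717 with the block). *Fst*, which encodes the activin antagonist follistatin, averaged 9.63 ± 0.21, 9.02 ± 0.1 and 8.9 ± 0.17 in these groups and was called by 0.62 against Bcat_Ctrl (adjusted p = 0.0284) and by 0.67 against both others (adjusted p = 0.00912).

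*Cd36*, a fatty acid receptor, was 0.81 higher in Tbx1_Ctrl than in Bcat_Ctrl (adjusted p = 0.0196), with 9.46, 9.63, 9.37 and 9.22 against 8.43, 8.93, 8.69 and 8.4. *Cpt1a*, which passes fatty acids into mitochondria, had 7.77, 7.71, 7.93 and 7.75 in Tbx1_Ctrl, 8.26, 8.67, 8.38 and 8.26 in Bcat_Ctrl and 8.01, 7.82, 7.86 and 7.84 in Rescue_Ctrl. All 4 Bcat_Ctrl arrays were above the other 8, and Tbx1_Ctrl minus Bcat_Ctrl was -0.6 (adjusted p = 0.0196). The pyruvate carrier gene *Mpc1* (log2 difference -0.51, adjusted p = 0.0442) and *Efhd1*, for a mitochondrial calcium-binding protein (-0.68, adjusted p = 0.0353), were also lower in Tbx1_Ctrl than in Bcat_Ctrl, and neither was called with the block (0.0589 and 0.0798).

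*Klk1b22* was called lower in Tbx1_Ctrl than in Bcat_Ctrl (adjusted p = 0.0196). This glandular kallikrein gene belongs to a multigene family of near-identical copies, so its probes may read other members. It had 5.58, 5.76, 5.66 and 5.68 in Tbx1_Ctrl, 6.41, 7.4, 7.96 and 7.14 in Bcat_Ctrl and 5.7, 5.93, 5.99 and 5.66 in Rescue_Ctrl, and was above the olfactory level in 2 arrays only, both of Bcat_Ctrl. No fold is given for it, since the Bcat_Ctrl mean of 7.23 is no higher than that level in Tbx1_Ctrl. In Bcat_Ctrl minus the other 8 controls its adjusted p was 0.021, and 0.00842 with the block over all 12 arrays. *Tcp11x2*, a multicopy X-linked testis gene, was called lower in Tbx1_Ctrl than in Bcat_Ctrl (adjusted p = 0.0196) and than in both other groups (adjusted p = 0.0126), and the zinc finger gene *Zfp600* higher in Tbx1_Ctrl than in Bcat_Ctrl (adjusted p = 0.021, and 0.0574 with the block). Both were below the olfactory level in every array, so no fold is given.

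*Rgs5*, a G protein regulator of pericytes, had 9.62, 9.04, 9.31 and 9.18 in Tbx1_Ctrl, 9.86, 9.69, 10.28 and 10.2 in Bcat_Ctrl and 10.07, 9.94, 9.76 and 9.85 in Rescue_Ctrl. The 4 Tbx1_Ctrl arrays were below the other 8, with a difference of -0.72 against Bcat_Ctrl (adjusted p = 0.0442, and 0.055 with the block). Against both others it was -0.67 (adjusted p = 0.0386, and 0.0699 with the block over all 12 arrays). *Nfib*, a transcription factor gene, differed from Bcat_Ctrl by -0.57 (adjusted p = 0.0442, and 0.059 with the block) and *Sat2*, of the diamine acetyltransferase family, by -0.56 (adjusted p = 0.0284, and 0.055 with the block). Against the other 8 controls Tbx1_Ctrl was also lower in *Bcam*, a laminin receptor gene (-0.36, adjusted p = 0.0386), the methyltransferase gene *Hemk1* (-0.34, adjusted p = 0.0159), *Gadd45gip1*, of the mitochondrial ribosome (-0.43, adjusted p = 0.04), *Dact3*, an inhibitor of Wnt signalling (-0.27, adjusted p = 0.0458), and 4833420G17Rik (-0.32, adjusted p = 0.0386). With the block over all 12 arrays *Bcam* (0.0988), *Hemk1* (0.0699), *Gadd45gip1* (0.115), *Dact3* (0.0699) and 4833420G17Rik (0.0702) were not called. In the opposite direction *Zfp991* was higher by 0.53 (adjusted p = 0.0462).

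Of 8 measured genes listed because their level differs between mouse strains, *Wdfy1* was called. It had 8.99, 9.01, 9.08 and 8.98 in Tbx1_Ctrl, 8.24, 8.64, 8.6 and 8.24 in Bcat_Ctrl and 8.47, 8.73, 8.62 and 8.71 in Rescue_Ctrl. Tbx1_Ctrl was above both other groups without overlap, by 0.58 against Bcat_Ctrl (adjusted p = 0.022, and 0.0314 with the block) and 0.38 against Rescue_Ctrl (adjusted p = 0.282). The other 7 were below 0 in Tbx1_Ctrl minus Bcat_Ctrl, against 32.7% of all genes, and none of them was called.

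**Figure D3:**
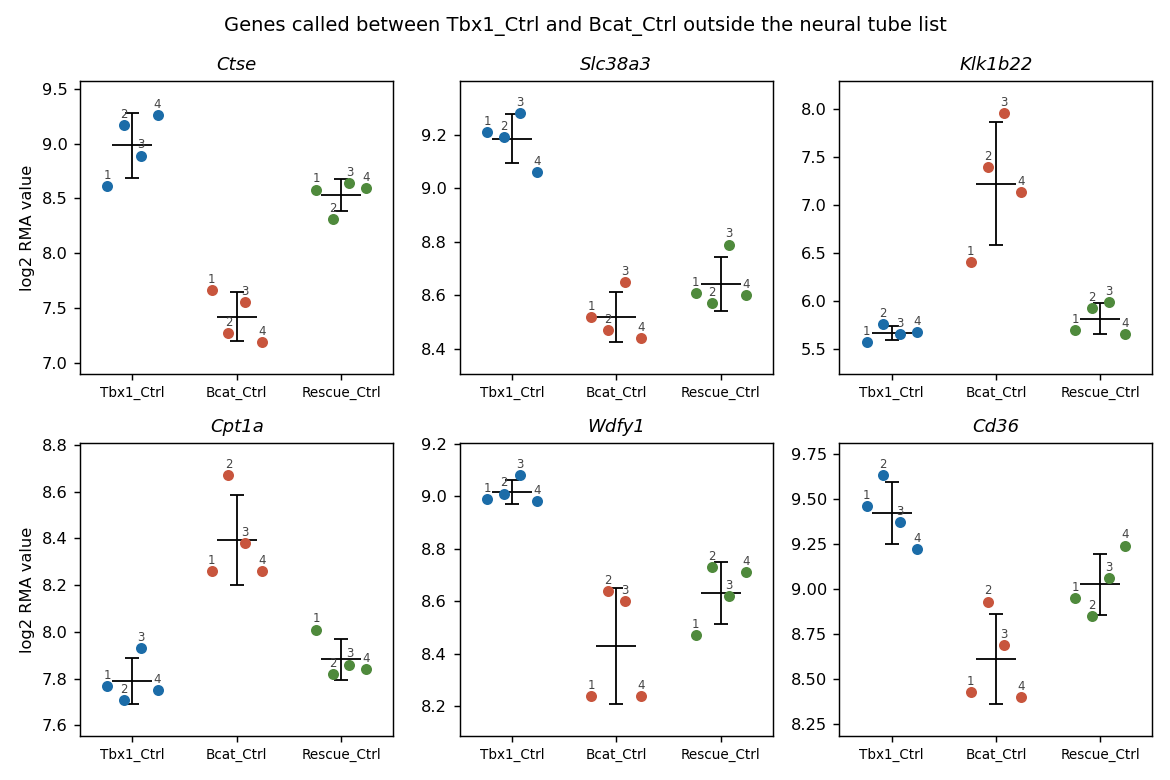
Log2 RMA value of 6 genes called between Tbx1_Ctrl and Bcat_Ctrl that are in no neural tube list; points are arrays with their number, the long line is the group mean and the whiskers are 1 SD (n = 4). *Ctse* is low in Bcat_Ctrl only (7.19 to 7.66), *Slc38a3* and *Wdfy1* are high in Tbx1_Ctrl only, and *Klk1b22* and *Cpt1a* are highest in the 4 Bcat_Ctrl arrays.

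Heart muscle genes were higher in Bcat_Ctrl than in both other groups, and none of the sarcomere genes was called. The 39 sarcomere genes had an array mean, relative to the 12 arrays, of -0.16, -0.21, -0.1 and -0.47 in Tbx1_Ctrl, 0.53, 1.57, 0.18 and 0.04 in Bcat_Ctrl and -0.33, -0.02, -0.53 and -0.51 in Rescue_Ctrl. All 4 Bcat_Ctrl arrays were above the other 8, with array 2 the highest. In Tbx1_Ctrl minus Bcat_Ctrl 38 of 39 differences were below 0, against 32.7% of all genes, 29 had an unadjusted p under 0.05, against 4.28%, and the median was -0.82. In Bcat_Ctrl minus Rescue_Ctrl 38 were above 0, against 39% of all genes, 32 had an unadjusted p under 0.05, against 5.97%, and the median was 0.98. Without Bcat_Ctrl array 2 these medians were -0.48 and 0.58. Tbx1_Ctrl minus Rescue_Ctrl had a median of 0.1, with 1 gene lower at an unadjusted p under 0.05, against 3.43% of all genes. The groups did not overlap for 16 genes in Tbx1_Ctrl minus Bcat_Ctrl, against 1.99% of all genes, and for 11 in Bcat_Ctrl minus Rescue_Ctrl, against 2.75%.

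Bcat_Ctrl arrays differed more from each other in these genes than in others. The median SD of a sarcomere gene within a group was 0.19 in Tbx1_Ctrl, 0.738 in Bcat_Ctrl and 0.251 in Rescue_Ctrl, beside 0.098, 0.088 and 0.084 over all genes in these groups. Within arrays 1 and 2 the list median of Tbx1_Ctrl minus Bcat_Ctrl was -1.27, and within arrays 3 and 4 it was -0.35. Bcat_Ctrl minus Rescue_Ctrl had 1.21 and 0.66 within these pairs of arrays.

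The sarcomere genes with the widest range of group means were *Tnni3*, *Myl2*, *Myh6* and *Smpx*. *Tnni3*, the cardiac troponin I gene, had 9.41, 9.49, 9.92 and 8.8 in Tbx1_Ctrl, 11.65, 12.75, 10.65 and 9.82 in Bcat_Ctrl and 9.03, 10.31, 8.47 and 8.61 in Rescue_Ctrl. Bcat_Ctrl array 4 lay within the range of the other groups. The difference of Tbx1_Ctrl from Bcat_Ctrl was -1.81 ± 0.52 (adjusted p = 0.194) and that of Bcat_Ctrl from Rescue_Ctrl 2.11 ± 0.52 (adjusted p = 0.19), which without Bcat_Ctrl array 2 were -1.3 and 1.6. *Smpx*, a small muscle gene on the X chromosome, was above all other arrays in each Bcat_Ctrl array, with 10.01, 11.96, 9.01 and 8.89 in Bcat_Ctrl against 7.92 to 8.35 in Tbx1_Ctrl and 7.69 to 8.79 in Rescue_Ctrl.

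Atrial and ventricular genes were all highest in Bcat_Ctrl array 2 and differed in which array came next. *Myh6*, a myosin heavy chain most abundant in atrial muscle, had 10.31, 10.72, 10.65 and 9.46 in Tbx1_Ctrl, 12.08, 12.77, 10.94 and 9.93 in Bcat_Ctrl and 9.3, 10.9, 8.81 and 8.84 in Rescue_Ctrl. *Nppa*, the atrial natriuretic peptide gene of the heart chambers, had 8.44, 8.75, 8.73 and 7.71 in Tbx1_Ctrl, 11.23, 12.77, 9.48 and 8.83 in Bcat_Ctrl and 7.27, 9.54, 7.67 and 7.4 in Rescue_Ctrl. Both were highest in Bcat_Ctrl arrays 2 and 1, and array 2 was the highest of Rescue_Ctrl. *Myl2*, the ventricular myosin light chain gene, had 7.75, 7.53, 7.75 and 7.74 in Tbx1_Ctrl, 7.99, 12.56, 8.26 and 10.09 in Bcat_Ctrl and 7.81, 7.7, 7.57 and 7.66 in Rescue_Ctrl. In *Myl2* array 4 came after array 2, whereas in *Nppa* and *Myh6* it was array 1. None of these 3 genes was called. Without Bcat_Ctrl array 2, Tbx1_Ctrl minus Bcat_Ctrl was -0.7 for *Myh6*, -1.44 for *Nppa* and -1.08 for *Myl2*, and Bcat_Ctrl minus Rescue_Ctrl was 1.52, 1.88 and 1.09. With it they were -1.15, -2.17 and -2.03, and 1.97, 2.61 and 2.04.

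**Figure D4:**
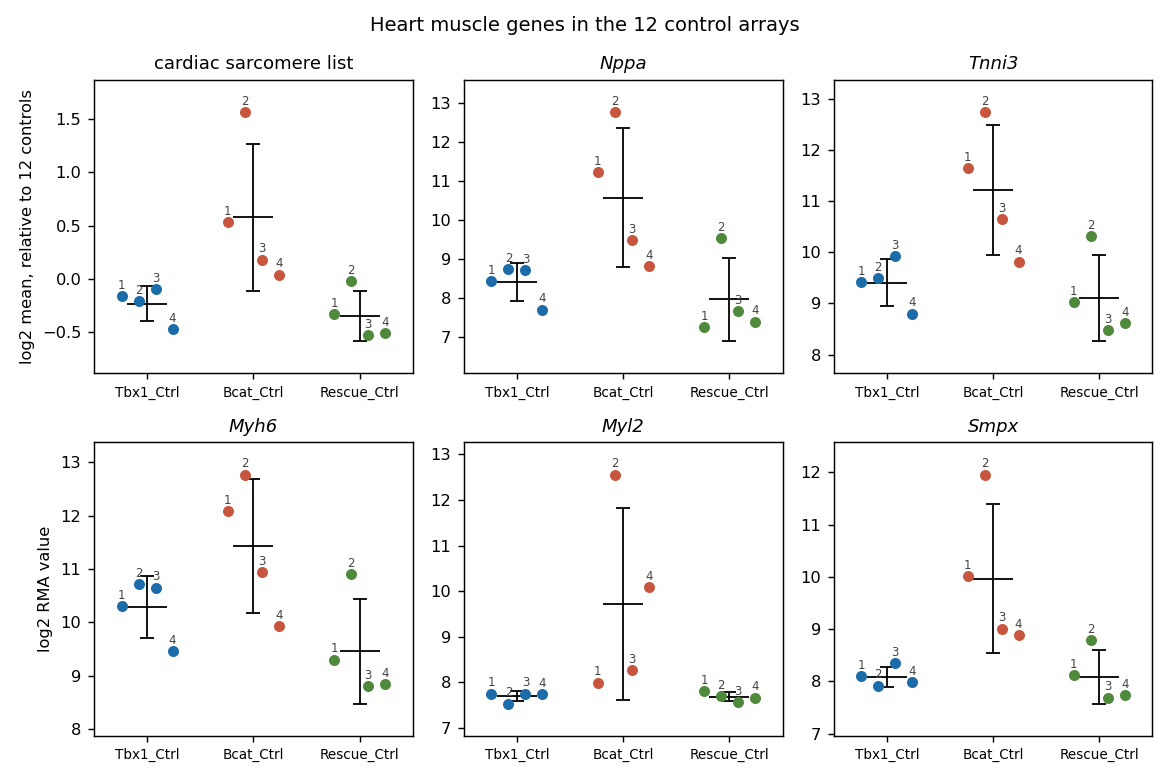
The mean of the 39 sarcomere genes relative to the 12 arrays, and the log2 RMA value of 5 heart muscle genes, in each control array; points are arrays with their number, the long line is the group mean and the whiskers are 1 SD (n = 4). Bcat_Ctrl array 2 is the highest point in each panel (12.77 for *Nppa*), and in *Myl2* Bcat_Ctrl array 4 (10.09) is high while array 1 (7.99) is not.

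In the other heart and smooth muscle lists *Hand2* and *Synpo2* were called and no other gene. The heart chamber list (12 genes) had medians of -0.53 in Tbx1_Ctrl minus Bcat_Ctrl and 0.52 in Bcat_Ctrl minus Rescue_Ctrl, which were -0.31 and 0.29 without Bcat_Ctrl array 2. *Hspb7*, a small heat shock protein gene of heart muscle, had 9.34, 9.42, 9.28 and 8.74 in Tbx1_Ctrl, 10.41, 11.97, 9.96 and 9.72 in Bcat_Ctrl and 9.18, 9.44, 8.84 and 8.83 in Rescue_Ctrl. Each Bcat_Ctrl array was above all others, at adjusted p = 0.18 against Tbx1_Ctrl. The calcium handling list (21 genes) had medians of -0.34 and 0.44 in these comparisons, and -0.13 and 0.21 without that array. Its sodium-calcium exchanger gene *Slc8a1* averaged 8.74 ± 0.35 in Tbx1_Ctrl, 10.13 ± 1.17 in Bcat_Ctrl and 8.32 ± 0.47 in Rescue_Ctrl (adjusted p = 0.19 for Bcat_Ctrl minus Rescue_Ctrl), a difference of 1.8 that was 1.27 without that array.

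All 16 cardiac transcription factors were below 0 in Tbx1_Ctrl minus Bcat_Ctrl (median -0.28), against 32.7% of all genes. All were above 0 in Bcat_Ctrl minus Rescue_Ctrl (median 0.23), against 39% of all genes. Without Bcat_Ctrl array 2 the medians were -0.15 and 0.16. *Hand2*, needed for the right ventricle and the arch mesenchyme, had 10.22, 10.04, 10.22 and 10.15 in Tbx1_Ctrl, 10.51, 10.51, 10.44 and 10.47 in Bcat_Ctrl and 10.3, 10.37, 10.22 and 10.32 in Rescue_Ctrl. The 4 Bcat_Ctrl arrays were close together and above all others. The difference of Tbx1_Ctrl from Bcat_Ctrl was -0.32 ± 0.05 (adjusted p = 0.0298, and 0.059 with the block) and Bcat_Ctrl minus Rescue_Ctrl was 0.18 (adjusted p = 0.197). *Tbx20*, a T-box gene of heart muscle, averaged 10.47 ± 0.23 in Tbx1_Ctrl, 11.11 ± 0.66 in Bcat_Ctrl and 10.24 ± 0.18 in Rescue_Ctrl and was not called (adjusted p = 0.271 and 0.19 against Bcat_Ctrl), and Bcat_Ctrl minus Rescue_Ctrl was 0.87 with Bcat_Ctrl array 2 and 0.56 without it. Of 13 smooth muscle genes, *Synpo2*, which encodes an actin-binding protein, was called lower in Tbx1_Ctrl than in Bcat_Ctrl (-0.52, adjusted p = 0.0477, and 0.0974 with the block). The contractile gene *Cnn1* averaged 9.94 ± 0.19 in Tbx1_Ctrl, 10.83 ± 0.66 in Bcat_Ctrl and 9.96 ± 0.31 in Rescue_Ctrl (adjusted p = 0.184 for Tbx1_Ctrl minus Bcat_Ctrl), a difference of -0.89 that was -0.58 without Bcat_Ctrl array 2.

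**Figure D5:**
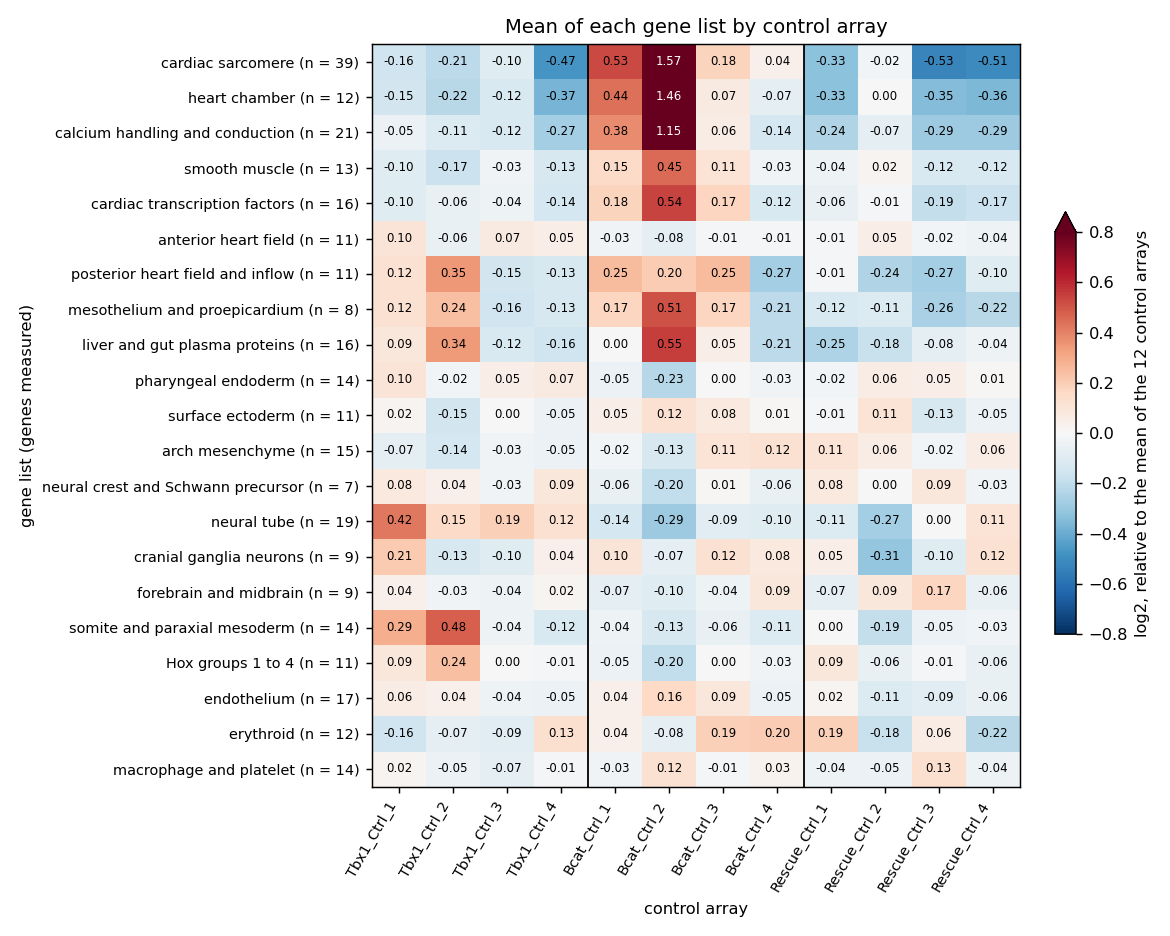
Mean of each tissue list in each control array, in log2 units relative to the mean of the 12 arrays; rows are lists with the number of genes measured, columns are arrays, and vertical lines separate the groups. The heart muscle lists are highest in Bcat_Ctrl array 2 (1.57 for the sarcomere list), the neural tube list in Tbx1_Ctrl array 1 (0.42) and the somite list in Tbx1_Ctrl arrays 1 and 2 (0.29 and 0.48).

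Somite genes were high in 2 of the 4 Tbx1_Ctrl arrays. The array mean of the 14 genes was 0.29, 0.48, -0.04 and -0.12 in Tbx1_Ctrl, whereas it lay between -0.13 and -0.04 in Bcat_Ctrl and between -0.19 and 0.0 in Rescue_Ctrl. The median difference of Tbx1_Ctrl from Bcat_Ctrl was 0.17, made of 0.38 within arrays 1 and 2 and -0.02 within arrays 3 and 4, and no member was called. *Meox2*, a homeobox gene of the somites, had 9.72, 10.03, 9.02 and 8.38 in Tbx1_Ctrl, 8.63, 8.35, 8.88 and 8.61 in Bcat_Ctrl and 9.05, 7.99, 8.22 and 8.93 in Rescue_Ctrl. Arrays 1 and 2 of Tbx1_Ctrl were above all others and array 4 within them (adjusted p = 0.342 against Bcat_Ctrl). *Dmrt2*, of the dermomyotome, was likewise highest in those arrays, at 8.8 and 9.56, with 8.36 and 7.77 in arrays 3 and 4. *Hox* genes of groups 1 to 4, which mark hindbrain and neck levels, had array means of 0.09, 0.24, 0.0 and -0.01 in Tbx1_Ctrl. They lay between -0.2 and 0.0 in Bcat_Ctrl and between -0.06 and 0.09 in Rescue_Ctrl.

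*Meox1*, also a somite gene, had another pattern. It had 11.1, 11.1, 10.94 and 10.93 in Tbx1_Ctrl, 10.73, 10.24, 10.59 and 10.68 in Bcat_Ctrl and 11.16, 11.06, 11.37 and 11.02 in Rescue_Ctrl. Bcat_Ctrl lay below both other groups without overlap, by 0.46 for Tbx1_Ctrl minus Bcat_Ctrl (adjusted p = 0.0954) and -0.59 for Bcat_Ctrl minus Rescue_Ctrl (adjusted p = 0.119), and it was not called.

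Markers of the liver bud and of the mesothelium, which covers the septum transversum near the heart, also peaked in single arrays. The 16 liver and gut genes had array means of 0.34 in Tbx1_Ctrl array 2 and 0.55 in Bcat_Ctrl array 2, and between -0.25 and 0.09 in the other 10. *Afp*, the fetal plasma protein alpha-fetoprotein, had 7.41, 8.63, 7.29 and 7.05 in Tbx1_Ctrl, 7.53, 9.68, 8.04 and 7.06 in Bcat_Ctrl and 6.71, 6.99, 7.0 and 7.38 in Rescue_Ctrl. The array with the highest *Afp* was thus also that with the highest *Nppa* and *Tnni3*. *Apoh*, *Ahsg*, *Fga*, *Fgg* and *Apom* of the same list were above the olfactory level in no array. The 8 mesothelium genes had array means of 0.12, 0.24, -0.16 and -0.13 in Tbx1_Ctrl, 0.17, 0.51, 0.17 and -0.21 in Bcat_Ctrl and -0.12, -0.11, -0.26 and -0.22 in Rescue_Ctrl. Its uroplakin gene *Upk1b* had 8.98, 9.49, 8.39 and 7.97 in Bcat_Ctrl, against 7.75 to 8.0 in Tbx1_Ctrl and 7.57 to 8.06 in Rescue_Ctrl (adjusted p = 0.193 and 0.19), and Bcat_Ctrl minus Rescue_Ctrl was 0.89 with Bcat_Ctrl array 2 and 0.63 without it.

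The posterior heart field, which feeds the inflow end, was not called either. Its 11 genes had array means of 0.12, 0.35, -0.15 and -0.13 in Tbx1_Ctrl, where array 2 was the highest of the 12. They had 0.25, 0.2, 0.25 and -0.27 in Bcat_Ctrl, so that array 4 stood apart, and -0.01, -0.24, -0.27 and -0.1 in Rescue_Ctrl. *Aldh1a2*, which makes retinoic acid, had 10.87, 11.64, 10.1 and 9.99 in Tbx1_Ctrl, 10.72, 10.04, 10.29 and 9.76 in Bcat_Ctrl and 10.31, 9.82, 9.94 and 9.9 in Rescue_Ctrl, high in Tbx1_Ctrl arrays 1 and 2. *Shox2*, of the sinus node, averaged 7.52 ± 0.15, 8.06 ± 0.36 and 7.43 ± 0.24 in these groups (adjusted p = 0.194 for Tbx1_Ctrl minus Bcat_Ctrl). How far neural, heart, somite and liver content of a pool sets the values of other genes was not tested.

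Lists of the tissues of the arches had no called member in any pair. The list medians of pharyngeal endoderm were 0.11 in Tbx1_Ctrl minus Bcat_Ctrl, 0.0 in Tbx1_Ctrl minus Rescue_Ctrl and -0.13 in Bcat_Ctrl minus Rescue_Ctrl (0.07, 0.0 and -0.07 without Bcat_Ctrl array 2), those of surface ectoderm -0.07, -0.05 and 0.03, and those of arch mesenchyme -0.09, -0.11 and -0.02. Neural crest and Schwann precursor genes had 0.1, 0.0 and -0.1, and endothelium -0.05, 0.08 and 0.13. Ranges of group means in them were 0.62 for *Dsp*, the desmosome gene, 0.6 for the mesenchyme gene *Barx1* and 0.42 for *Dlx2* and *Ripply3*. *Sox10*, of migrating neural crest, had 9.33, 9.33, 9.32 and 9.49 in Tbx1_Ctrl, 9.01, 8.83, 9.16 and 9.11 in Bcat_Ctrl and 9.37, 9.42, 9.53 and 9.17 in Rescue_Ctrl. Bcat_Ctrl was below both other groups without overlap (adjusted p = 0.141 and 0.19). All 12 erythroid genes were below 0 in Tbx1_Ctrl minus Bcat_Ctrl, against 32.7% of all genes, with a median of -0.12 and none called.

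Rescue_Ctrl had no called difference from the other 8 controls, with a smallest adjusted p of 0.14052. The block over all 12 arrays also called none, whereas the fit to all 24 arrays called 4. Among genes with a fold change over 1.5 and no overlap, 1 higher and 1 lower, neither of them called, are given. *Cwc22*, a splicing factor gene known to vary in copy number between mouse strains, had 11.42, 11.39, 11.27 and 11.89 in Rescue_Ctrl, against 10.92, 10.89, 10.64 and 10.8 in Tbx1_Ctrl and 10.52, 10.83, 10.92 and 10.58 in Bcat_Ctrl. Every Rescue_Ctrl array was above the other 8, with a difference of 0.73 ± 0.11 (1.66-fold, adjusted p = 0.141). *Efcab11*, for an EF-hand protein, had 8.52, 8.44, 7.86 and 8.3 in Rescue_Ctrl, against 9.24, 8.84, 8.71 and 8.86 in Tbx1_Ctrl and 8.84, 8.96, 8.9 and 8.92 in Bcat_Ctrl. All Rescue_Ctrl arrays were below the others, with a difference of -0.63 ± 0.11 (adjusted p = 0.146).

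Genes of FGF signalling, which acts between arch endoderm, ectoderm and AHF, were lower in Bcat_Ctrl than in Rescue_Ctrl as a list without any call. All 12 genes were below 0 in Bcat_Ctrl minus Rescue_Ctrl, against 61% of all genes, and 7 had an unadjusted p under 0.05, against 10.9%. The median was -0.21, and -0.15 without Bcat_Ctrl array 2, beside -0.03 over all genes. *Fgf8* had 9.69, 9.48, 9.8 and 9.89 in Bcat_Ctrl, against 9.96, 10.28, 10.24 and 10.16 in Rescue_Ctrl, and 9.73, 9.67, 9.99 and 10.06 in Tbx1_Ctrl. Bcat_Ctrl and Rescue_Ctrl did not overlap, with a difference of -0.45 (adjusted p = 0.19). The FGF target *Etv5* (-0.35, adjusted p = 0.218) and the feedback inhibitor *Spry1* (-0.27, adjusted p = 0.234) did not overlap either. Canonical Wnt targets had medians of 0.0, 0.01 and 0.02 in the 3 pairs, Tbx1_Ctrl minus Bcat_Ctrl first and Bcat_Ctrl minus Rescue_Ctrl last, and BMP ligands and targets -0.06, 0.0 and 0.06 (the last 0.0 without Bcat_Ctrl array 2), with no member called.

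Lists of cell state had medians near those of all genes. Cell cycle genes had medians of 0.06, 0.04 and -0.01 in the same pairs, p53 targets 0.02, 0.08 and 0.02, immediate early and heat shock genes -0.04, -0.03 and -0.04, and hypoxia and glycolysis genes 0.02, 0.05 and 0.03. None of these genes was called. *Kdm5d*, on the Y chromosome, was above the olfactory level in all 12 arrays and *Xist* in 11. *Xist*, which is expressed from the inactive X chromosome, had 12.08, 11.77, 9.98 and 11.95 in Tbx1_Ctrl, 12.24, 11.72, 12.15 and 10.34 in Bcat_Ctrl and 6.59, 11.59, 11.33 and 11.52 in Rescue_Ctrl. Rescue_Ctrl array 1 was the only one below the olfactory level for it. *Kdm5d* had 9.28, 8.91, 9.59 and 8.78 in Tbx1_Ctrl, 8.2, 8.42, 8.08 and 9.48 in Bcat_Ctrl and 9.65, 9.16, 9.21 and 9.16 in Rescue_Ctrl, lowest in 3 of the Bcat_Ctrl arrays. Neither gene was called in any pair.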

How the data were processed

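RNA of pooled, microdissected AHF was amplified and hybridised to Affymetrix mouse Gene ST arrays. The authors normalised the arrays by RMA with oligo and deposited log2 intensities, 1 value per probe set. Arrays of poor quality had been excluded by the authors, and 4 per genotype were kept. No source used here gives the oligo version or genome build. The methods name ComBat as a batch correction before testing, and whether the deposited log2 values hold it is not stated. Of 35556 probe sets, 21789 had 1 gene symbol, 1621 had several and 12146 had none. Those with 1 symbol were averaged per gene, which gave 19938 genes, 999 of them from more than 1 probe set, with values from 3.62 to 14.56. Of these symbols, 19856 were matched by gene ID.

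The 12 control arrays were fitted with 3 group means in limma 3.58.1 (R 4.3.3), with 6 contrasts (3 pairs, and each group minus the other 8 controls) and a moderated F test, and p-values were adjusted by Benjamini-Hochberg over all genes. The fit was tested on simulated data with independent values for each gene and array. Those data hold no structure shared between arrays, so the test does not cover it. Where a group was not above the olfactory level in any array, a fold was given as a bound, with each dim array set to its level. No detection p-value was used, and having 4 arrays per group limits the precision. Lists were described by counts and medians. The members and lists were chosen with earlier results of these data known. Genes named were, per contrast, up to 10 in each direction that were called and did not overlap between groups, the called members of each list and the 4 with the widest range of group means. Where a contrast called none, they were up to 5 in each direction by p among genes with a fold change over 1.5 and no overlap. Others are given as chosen after their values were seen.

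Array numbers are shared by the groups, and the labels do not say what a number stands for. Deviations from the group mean correlated between same-numbered Tbx1_Ctrl and Bcat_Ctrl arrays (r = 0.1278, 0.2118, 0.1638 and 0.3203), so that these were treated as paired from the data alone, in an alternative fit. Differently numbered arrays within 1 and 2, or within 3 and 4, had r = 0.0979 to 0.1559, and all other pairs -0.2887 to -0.0847. These values do not tell pairing by number from a split of arrays 1 and 2 from arrays 3 and 4. Numbers of Rescue_Ctrl did not pair with Tbx1_Ctrl (r = -0.1391 to 0.025) or with Bcat_Ctrl (r = -0.2472 to 0.2442). Other alternatives were all 24 arrays in the fit, other scalings, a filter on low genes, the highest probe set per gene, a robust trended fit, array weights and leaving out each array. Promoter windows were taken from RefSeq (GRCm38.p6). Mutant arrays were not otherwise used.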

Additional observations from a re-analysis of the deposited data

Results flagged for a closer look

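In 17 of 318 groups of 4 arrays tested, 1 array stood apart from the other 3 by Dixon's ratio (critical value 0.829). Chance marks about 1 in 20 groups. Of the 102 list means tested, 7 were among them. The heart chamber list in Rescue_Ctrl was highest in array 2, at -0.0 against -0.36 to -0.33. The branchiomeric muscle list in Bcat_Ctrl was lowest in array 2, at -0.12 against 0.02 to 0.04. The posterior heart field list in Bcat_Ctrl was lowest in array 4, at -0.27 against 0.2 to 0.25. The macrophage and platelet list in Rescue_Ctrl was highest in array 3, at 0.13 against -0.05 to -0.04. The cell cycle list in Bcat_Ctrl was lowest in array 2, at -0.09 against -0.03 to -0.02. The immediate early and heat shock list in Tbx1_Ctrl was highest in array 1, at 0.01 against -0.04 to -0.03. The list of Y-linked genes and *Xist* in Rescue_Ctrl was lowest in array 1, at -0.65 against 0.16 to 0.3.

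Among single genes, Tbx1_Ctrl array 1 was highest for *Aste1* (8.89 against 8.77 to 8.78) and *Kbtbd11* (8.27 against 8.1 to 8.12). Bcat_Ctrl array 2 was lowest for *Dab1* (9.11 against 9.44 to 9.47), *Dact3* (9.56 against 9.68 to 9.7) and *Sh3bgrl2* (9.84, with the next array at 9.98), and highest for *Nfib* (8.35 against 7.89 to 7.94). In Rescue_Ctrl, array 2 was lowest for *Cyb5r4* (10.51 against 10.57 to 10.58), array 3 was lowest for *Sh3bgrl2* (9.89 against 10.07 to 10.1) and highest for *Caln1* (7.09 against 6.99 to 7.0), and array 4 was lowest for *Trp53rkb* (7.66 against 7.71 to 7.72). Bcat_Ctrl array 2 was the array marked in 6 of the 17 groups.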

How the results depend on the processing

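Counts of called genes are given for Tbx1_Ctrl minus Bcat_Ctrl (60), Tbx1_Ctrl minus Rescue_Ctrl (1), Bcat_Ctrl minus Rescue_Ctrl (1), Tbx1_Ctrl, Bcat_Ctrl and Rescue_Ctrl each minus the other 8 controls (42, 4 and 0) and the F test (27), always in this order. They were 112, 5, 13, 14, 154, 4 and 68 with all 24 arrays in the fit, 64, 3, 0, 33, 8, 0 and 42 with array medians subtracted, and 78, 2, 0, 43, 19, 0 and 43 after quantile normalization. They were 57, 6, 1, 38, 3, 0 and 7 after the filter on low genes, 55, 9, 1, 42, 4, 0 and 27 with the highest probe set per gene, 71, 5, 1, 37, 8, 0 and 30 with the robust trended fit, and 57, 20, 8, 74, 3, 1 and 56 with array weights. Of the calls in Tbx1_Ctrl minus Bcat_Ctrl, 56 were higher and 56 lower with all 24 arrays, and 50 and 28 after quantile normalization.

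With a replicate block over all 12 arrays the counts were 17, 1, 3, 12, 20, 0 and 6. With the replicate block in Tbx1_Ctrl and Bcat_Ctrl only, chosen after seeing the data, they were 19, 0, 0, 48, 1, 47 and 11. Only the 19, of which 18 are among the 60, is an alternative to the count above. The other contrasts and the F test set Rescue_Ctrl against fitted levels of array number 1. Their counts therefore do not show how the differences of group means depend on the block. The same holds for the adjusted p of *Slc38a3* in Tbx1_Ctrl minus Rescue_Ctrl (0.0532) and of *Ctse* in Bcat_Ctrl minus Rescue_Ctrl (0.0585) in that fit. With the block over all 12 arrays the adjusted p of these 2 results was 0.00859 and 0.0569. With arrays 1 and 2 against 3 and 4 as a term the counts were 77, 8, 44, 48, 93, 8 and 77. With that term in each group, also chosen after seeing the data, they were 751, 192, 366, 465, 857, 78 and 951, within arrays 1 and 2 they were 2748, 1418, 919, 2507, 1935, 529 and 3162, and within arrays 3 and 4 they were 0, 2, 1, 3, 1, 1 and 3. The cause of these changes was not tested.

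Leaving out 1 array gave 4 to 55, 0 to 22, 0 to 8, 7 to 49, 1 to 239, 0 to 1 and 2 to 35. The 22 arose without Tbx1_Ctrl array 4, the 239 without Bcat_Ctrl array 4, and the 8 without Rescue_Ctrl array 1. Tbx1_Ctrl minus Bcat_Ctrl also gave 39 and 40 without Tbx1_Ctrl arrays 3 and 4, and 24, 39 and 33 without Rescue_Ctrl arrays 2, 3 and 4. Tbx1_Ctrl minus the other 8 controls gave 7, 13 and 12 without Tbx1_Ctrl arrays 1, 2 and 3, 11, 24 and 21 without Bcat_Ctrl arrays 1, 3 and 4, and 26, 19, 23 and 15 without Rescue_Ctrl arrays 1, 2, 3 and 4. No called gene changed direction, whereas 128 list medians had the other sign under the settings (45 of them within arrays 3 and 4) and 96 when 1 array was left out. Among the larger ones, the somite median of Tbx1_Ctrl minus Bcat_Ctrl was -0.02 within arrays 3 and 4 (0.17 over all), the liver median of Bcat_Ctrl minus Rescue_Ctrl -0.06 there (0.14 over all), and the mesothelium median of Tbx1_Ctrl minus Bcat_Ctrl 0.03 without Bcat_Ctrl array 2 (-0.13 with it). For called results, each a gene in 1 contrast, 1016 values stayed under the threshold under the settings and 377 did not. When 1 array was left out these were 559 and 737. Results that gained a call were not counted here. The counts under the settings include contrasts with Rescue_Ctrl from the block in Tbx1_Ctrl and Bcat_Ctrl, which are not differences of group means. Under that block 18 of the 128 list medians had the other sign. Of list medians, 2592 moved by less than the spread between arrays and 60 by more, against 2443 and 5 when 1 array was left out.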
